A study of Mus musculus with 16 samples.

Results

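Genes of antigen presentation and of the interferon response were followed in whole lungs of T1α(-/-) and T1α(+/+) mice around birth. The set holds 39 genes chosen by name: 5 of MHC class I, 3 of peptide loading, 5 of the immunoproteasome, 6 of MHC class II, 6 transcription factors of the interferon response and 14 interferon-induced genes. A probe set annotated with a single symbol measured 33 of them, out of 8251 genes named in this way on the array. Where a gene had several such probe sets, the one with the highest mean log2 signal over all arrays stood for it. H2-Q7, H2-T23 and Psme2 were present only on probe sets that carry several symbols, and Irf2, Stat2 and Bst2 were not analysed here because the annotation used names no probe set for them.

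RNA of whole lungs was hybridized to 16 Affymetrix U74Av2 arrays, with 1 lung per array. There were 3 T1α(-/-) lungs at term (replicates F to H), 3 T1α(+/+) lungs at term (N to P), 5 T1α(-/-) lungs at E18.5 (A to E) and 5 T1α(+/+) lungs at E18.5 (I to M). T1α (Pdpn, podoplanin) is a membrane protein of type I alveolar epithelial cells. The (-/-) animals carry a germline null mutation, came from matings of heterozygous mice and thus lack T1α in every tissue, and term animals were collected within minutes of delivery. Strain, litter and sex of the animals are not given in the sources used here. The replicates are separate lungs, so p-values measure the spread between lungs of a group. Litter and hybridization batch are not given, so they cannot be told apart from time where term is compared with E18.5. This holds in both genotypes.

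The labels were first checked on T1α itself. Its signal was 9.0, 8.6 and 30.0 in (-/-) lungs and 88.5, 39.7 and 214.9 in (+/+) lungs at term, and 1.4 to 21.2 in (-/-) lungs and 60.2 to 135.5 in (+/+) lungs at E18.5, with no overlap of the genotypes at either time. Surfactant protein C (Sftpc), which defines type II cells, averaged 6417 in (-/-) lungs and 5774 in (+/+) lungs at term, and 17886 in (-/-) lungs and 16647 in (+/+) lungs at E18.5. The 3' to 5' ratio of GAPDH, a sign of RNA integrity, was 1.43 to 2.63 on 6 arrays (G, N and O at term, B, K and L at E18.5) and 0.83 to 1.16 on the other 10 arrays. The same ratio of actin did not follow this split. It was 1.13 to 2.72 on the first 6 arrays and 1.08 to 1.91 on the other 10. Replicate O, for example, had 2.55 for GAPDH and 1.35 for actin. The methods accept ratios under 3. On replicate I, a (+/+) lung at E18.5, probe sets for bacterial genes that were not spiked in averaged 35.3, against 3.58 to 11.05 on the other arrays, and low signals were raised. Signals are linear and scaled per array. They were compared as log2(signal + 16), and a probe set was tested where the median of at least 1 group exceeded a level between 47.7 and 53.4.

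MHC class I molecules carry peptides from inside the cell to its surface. Each consists of a heavy chain and of β2-microglobulin, and the peptides are cut by the proteasome, moved into the endoplasmic reticulum by the TAP transporter and loaded with the help of tapasin. Class II molecules carry peptides from endocytosed proteins, and in the lung they are known from macrophages, dendritic cells and alveolar type II cells. Interferons raise both pathways, type I interferon through a complex with IRF9 that binds the interferon-stimulated response element, and interferon-γ through IRF1 and the class II activator CIITA.

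The proximal promoters of class I genes are shown because H2-K1 and B2m were called higher at term in both genotypes, and that of Isg15 for contrast as an interferon-induced gene. The windows come from the RefSeq promoter table of GRCm38.p6, which holds 33 of the 39 members, and lie upstream of the annotated start site. Capitals mark matches to the NF-κB consensus and to the CCAAT box (also read as ATTGG), and in B2m and Isg15 to the interferon-stimulated response element, searched as a pair of GAAA repeats with any 2 bases between them, on both strands for every motif. H2-K1 is at chr17:34000354-34000463 (minus strand), H2-D1 at chr17:35262918-35263050 (plus), H2-Q7 at chr17:35439017-35439148 (plus), B2m at chr2:122147543-122147643 (plus) and Isg15 at chr4:156200870-156200901 (minus).
H2-K1: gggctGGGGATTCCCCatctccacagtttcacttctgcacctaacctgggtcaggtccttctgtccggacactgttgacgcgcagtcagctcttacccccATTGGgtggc
H2-D1: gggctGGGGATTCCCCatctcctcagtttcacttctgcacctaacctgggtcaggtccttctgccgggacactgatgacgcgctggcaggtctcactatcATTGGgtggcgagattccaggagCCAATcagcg
H2-Q7: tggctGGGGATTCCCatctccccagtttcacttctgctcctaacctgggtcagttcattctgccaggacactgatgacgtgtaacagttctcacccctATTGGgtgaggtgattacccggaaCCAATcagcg
B2m: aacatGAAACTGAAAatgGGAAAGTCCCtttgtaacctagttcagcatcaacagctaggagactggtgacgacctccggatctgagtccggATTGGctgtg
Isg15: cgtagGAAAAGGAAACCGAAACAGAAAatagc
The H2-K1 and H2-D1 windows were identical at 99 of 110 aligned positions. An NF-κB match lay in the promoters of 4 of the 5 class I members and in 8.46% of 32851 mouse promoters of the same length, and a CCAAT box lay in all 5 and in 37.4%. The response element lay in 9 of the 12 interferon-induced members with a promoter entry and in 3.44% of all promoters. In Isg15, which encodes a ubiquitin-like modifier, 3 overlapping copies of it follow each other. A match describes these letters and was not tested as a binding site.

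H2-K1 and B2m were called higher at term than at E18.5 in both genotypes, and H2-D1 in (+/+) lungs. H2-K1, a classical heavy chain, had signals of 748.8, 954.2 and 832.9 in (-/-) lungs at term and 506.7, 398.3, 535.4, 393.0 and 459.9 in (-/-) lungs at E18.5. In (+/+) lungs it had 1219.7, 1100.1 and 733.0 at term and 286.5, 306.9, 515.5, 448.3 and 412.0 at E18.5. Term and E18.5 did not overlap in either genotype, and the term means were 1.84 times the E18.5 mean in (-/-) lungs and 2.58 times it in (+/+) lungs. The log2 differences were 0.86 (standard error 0.20, adjusted p = 0.00875 from limma) in (-/-) lungs and 1.34 (standard error 0.29, adjusted p = 0.00585) in (+/+) lungs.

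H2-D1, another classical heavy chain, had 726.8, 973.8 and 835.8 in (-/-) lungs at term and 686.2, 402.5, 777.3, 449.2 and 597.6 at E18.5, which overlapped. In (+/+) lungs its signals were 1237.9, 1202.4 and 819.9 at term and 414.8, 340.2, 540.7, 442.2 and 479.6 at E18.5, with no overlap. The change of 1.26 in (+/+) lungs (log2, standard error 0.27) passed the test (adjusted p = 0.00573) and that of 0.56 in (-/-) lungs (standard error 0.25) did not (adjusted p = 0.107). The difference between these 2 changes was -0.70 (standard error 0.35) and did not pass the test either (adjusted p over 0.99).

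B2m, the light chain that every class I molecule shares, had 746.1, 508.3 and 577.7 in (-/-) lungs at term and 227.5, 175.6, 310.1, 471.4 and 355.8 at E18.5. In (+/+) lungs it had 797.5, 571.9 and 634.9 at term and 186.7, 399.0, 223.7, 332.3 and 502.0 at E18.5. The times did not overlap in either genotype, and B2m rose by 1.01 in (-/-) lungs (log2, standard error 0.29, adjusted p = 0.0216) and by 1.06 in (+/+) lungs (standard error 0.32, adjusted p = 0.0299). All 3 class I members with a probe set of their own thus had positive changes in both genotypes. Of these, 2 were called higher in (-/-) lungs and 3 in (+/+) lungs, where 13.8% and 10.6% of all probe sets tested were.

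**Figure D1:**
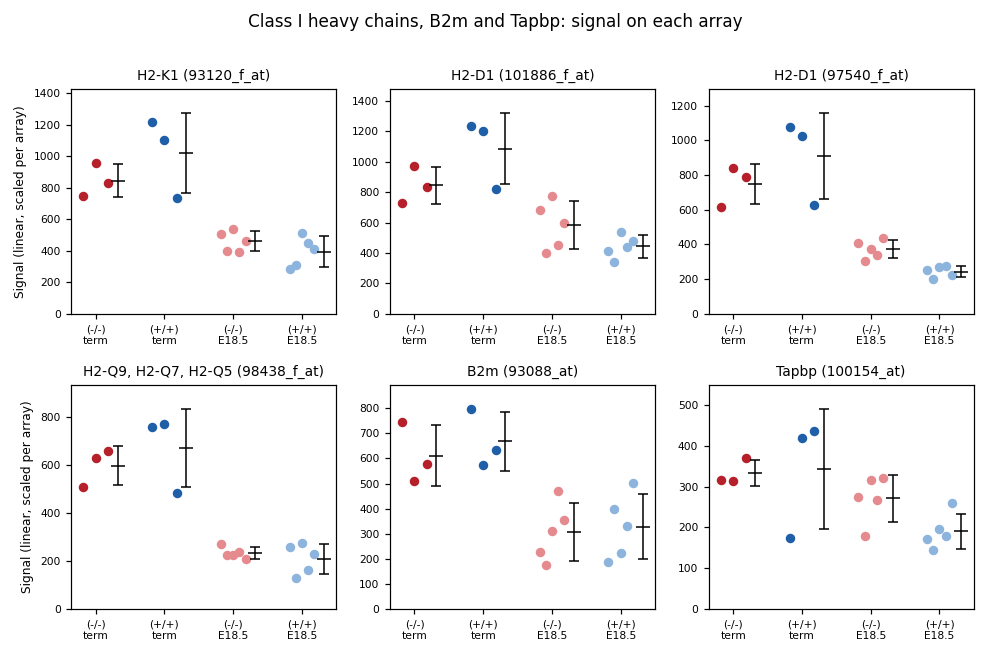
Signal (linear, scaled per array) on each array for H2-K1, 2 probe sets of H2-D1, a probe set shared by H2-Q9, H2-Q7 and H2-Q5, B2m and Tapbp, with 1 circle per lung and the mean ± SD beside each group. H2-K1, B2m and the probe sets 97540_f_at and 98438_f_at lay higher on every term array than on every E18.5 array of the same genotype, and the genotypes at term overlapped in all 6 panels.

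Heavy chain genes are close copies of each other, and most of their probe sets bear the suffix _f, which Affymetrix gives to probe sets shared within a gene family. Their signals therefore cannot be assigned to 1 gene with certainty. The other tested probe sets annotated to a class I heavy chain of the set had positive changes over time in both genotypes. 97540_f_at, annotated to H2-D1, had 617.4, 838.4 and 785.6 in (-/-) lungs and 1075.6, 1023.3 and 624.4 in (+/+) lungs at term, and 305.7 to 438.0 in (-/-) lungs and 197.5 to 274.4 in (+/+) lungs at E18.5. Its change over time was 0.97 in (-/-) lungs (adjusted p = 0.00546) and 1.81 in (+/+) lungs (adjusted p = 0.000609). 98438_f_at, annotated to H2-Q9, H2-Q7 and H2-Q5, changed by 1.29 in (-/-) lungs (adjusted p = 0.000974) and by 1.62 in (+/+) lungs (adjusted p = 0.00211). 97125_f_at (H2-K1) and 97541_f_at (H2-D1) were also called higher at term in both genotypes, while 102161_f_at, with 10 symbols that include H2-T23, was called in (+/+) lungs (0.86, adjusted p = 0.0297) but not in (-/-) lungs (0.45, adjusted p = 0.216), and the difference between these 2 changes (-0.41, standard error 0.36) did not pass the test. The H2-T23 probe set 98472_at averaged 76.4 ± 17.6 in (-/-) lungs and 93.8 ± 25.3 in (+/+) lungs at term (SD, n = 3 each), and 54.4 ± 20 in (-/-) lungs and 61.7 ± 26.4 in (+/+) lungs at E18.5 (SD, n = 5 each), and passed no test. H2-Q4, a class I gene outside the set, rose by 0.72 in (-/-) lungs (adjusted p = 0.036) and by 1.26 in (+/+) lungs (adjusted p = 0.00476). H2-Q10, the other heavy chain outside the set that was tested, changed by -0.24 in (-/-) lungs (standard error 0.25, adjusted p = 0.499) and by -0.34 in (+/+) lungs (standard error 0.32, adjusted p = 0.472).

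Fewer cells of a type and less RNA per cell cannot be told apart in RNA of whole lungs. The summed signal of 6 endothelial markers lay between 1352 and 1807 on the 6 term arrays and between 735 and 1201 on the 10 E18.5 arrays, without overlap. Cdh5, the cadherin of endothelial junctions, gave the largest part of this sum. It averaged 876 at term and 521 at E18.5 in (-/-) lungs, and 889 and 429 in (+/+) lungs. Cdh5 was the 1 marker called, of 6 tested in (-/-) and 5 in (+/+) lungs, and rose by 0.72 and by 1.05. Of the 6 markers, 5 had positive changes in (-/-) and 4 in (+/+) lungs. Of all probe sets tested, 13.8% were called higher and 13.0% lower in (-/-) lungs, and 10.6% and 7.99% in (+/+) lungs. Pecam1 averaged 42.7 at term and 55.4 at E18.5 in (-/-) lungs, and 35.3 and 65.8 in (+/+) lungs, where it was not tested. Its change in (-/-) lungs did not pass the test (adjusted p = 0.694). The summed signal of 12 macrophage and monocyte markers was 2503 to 3855 at term and 1530 to 3624 at E18.5, with 1 of its 9 tested members, Cd14, called higher in each genotype. Of the 12 markers, 8 had negative changes in (-/-) and 7 in (+/+) lungs (medians -0.16 and -0.16), and Lyz2, which encodes lysozyme, averaged 1705 at term and 1318 at E18.5 in (-/-) lungs, and 2081 and 901 in (+/+) lungs, without passing the test (adjusted p = 0.357 and 0.0542). The 8 neutrophil markers, of which 5 were tested in (-/-) and 6 in (+/+) lungs, summed to 620 to 1270 at term and 366 to 766 at E18.5. S100a8 and S100a9 were called higher in both genotypes and Elane lower in (-/-) lungs. B cell markers (6 genes, 158 to 210 at term and 166 to 572 at E18.5), T cell and thymus markers (11 genes, 139 to 271 and 177 to 531) and dendritic cell markers (6 genes, 192 to 366 and 260 to 486) had none called higher at term. Most of them were below the level for a test: only 2 of each list were tested in (-/-) lungs. In (+/+) lungs 3, 2 and 1 were tested, in the same order. In (-/-) lungs 1 of each list was called lower (Ighm, Cd4 and Flt3), where 13.0% of all probe sets tested were. The 7 lung epithelial markers, of which 5 were tested in (-/-) and 6 in (+/+) lungs, summed to 12900 to 17246 at term and 16954 to 33934 at E18.5. Among them, Sftpc fell by 1.45 in both genotypes, Sftpb fell and Scgb1a1 rose in both. Of 6 pan-leukocyte markers, 3 were tested in (-/-) and 4 in (+/+) lungs, and Coro1a was called lower in (-/-) and Vav1 in (+/+) lungs. Cd3e and Cd8a, which define T cells, lay at 5.9 to 40.3 and 0.7 to 24.5 over all arrays. The part of these cell types in the class I values was not tested.

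The (+/+) calls of class I genes were not kept in every alternative. The GAPDH ratio was 1.84 and 2.55 on replicates N and O, which had the higher H2-K1 and H2-D1 signals of the 3 (+/+) lungs at term, and 0.85 on P. Xist, the X-inactivation RNA of female cells, was at 6.7 to 10.2 on all 3 of them and at 14.3 to 80 in (+/+) lungs at E18.5. With Xist as a covariate, or with only the arrays of a GAPDH ratio under 1.4, where P is the only (+/+) lung left at term and is assumed to vary like the other groups, H2-K1, H2-D1 and B2m were no longer called in (+/+) lungs. Over all alternatives their (+/+) changes stayed between 1.11 and 1.55, 0.98 and 1.44, and 0.87 and 1.23, with adjusted p up to 0.0999, 0.14 and 0.302. Leaving out N raised the adjusted p of H2-K1 in (+/+) lungs to 0.0522. B2m lost its call without I, L, N or O in (+/+) lungs (adjusted p up to 0.157), and in (-/-) lungs without F or H (adjusted p up to 0.0976) and on the arrays with the lower ratio, and in both genotypes with the methods' t-test. H2-K1 in (-/-) lungs was called in all alternatives but the arrays with the lower ratio (adjusted p = 0.0574), with changes from 0.73 to 0.97. Replicate G had the highest GAPDH ratio of all arrays, 2.63. It also had the highest H2-K1 and H2-D1 signals of the 3 (-/-) lungs at term, 954.2 and 973.8.

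No gene of peptide loading was called in any comparison. Tap1, a subunit of the peptide transporter, averaged 98.1 ± 29.6 in (-/-) lungs and 109 ± 16.4 in (+/+) lungs at term (SD, n = 3 each), and 117 ± 48.5 and 104 ± 32.6 at E18.5 in the same order (SD, n = 5 each). Its changes over time were -0.18 (standard error 0.28) and 0.10 (standard error 0.27). Tap2, the other subunit, lay between 12.4 and 95.2 over all arrays, and was below the level for a test within each time and each genotype.

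Tapbp is tapasin, which bridges TAP and the class I heavy chain. Among the probe sets that stood for the members, that of Tapbp had the lowest p between genotypes at E18.5. 100154_at, which stood for the gene, had 275.0, 178.0, 316.4, 267.7 and 320.2 in (-/-) lungs and 171.0, 145.6, 195.0, 180.0 and 260.4 in (+/+) lungs at E18.5. The genotypes overlapped, since replicate B had 178.0 and replicate M had 260.4. The log2 difference of 0.47 (standard error 0.21) had an unadjusted p of 0.0365 from limma and an adjusted p of 0.858, and the exact permutation test gave 0.0476. Its 2 other probe sets gave -0.05 and 0.05 for the same comparison. At term 100154_at had 317.1, 313.9 and 371.0 in (-/-) lungs and 173.1, 418.3 and 437.1 in (+/+) lungs, a difference of 0.06. Over time it changed by 0.31 in (-/-) lungs (adjusted p = 0.313) and by 0.72 in (+/+) lungs (adjusted p = 0.114), and by 1.13 in (+/+) lungs without N (adjusted p = 0.0421).

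The immunoproteasome replaces subunits of the standard proteasome when interferon-γ acts, and Psme1 and Psme2 form its PA28 activator cap. Psme1 was the member of this group with a call: it had 215.9, 163.7 and 558.2 in (-/-) lungs at term and 591.8, 734.3, 536.3, 480.9 and 513.1 at E18.5. In (+/+) lungs it had 132.5, 120.2 and 415.2 at term and 280.6, 425.4, 672.2, 502.8 and 512.8 at E18.5. It fell by 1.01 in (-/-) lungs (log2, standard error 0.32, adjusted p = 0.034) and by 1.21 in (+/+) lungs (standard error 0.37, adjusted p = 0.0332), but 1 term array of each genotype, H with 558.2 and P with 415.2, lay within the E18.5 range. H and P had the lowest GAPDH ratios of their groups, 0.83 and 0.85. Among arrays with a ratio under 1.4 the change was -0.58 in (-/-) lungs and 0.07 in (+/+) lungs, and neither was called. The call was also lost in 4 other alternatives in (-/-) and 5 in (+/+) lungs, and without each of A, B, C, F, G, J, K, L, M, N or O in turn (adjusted p up to 0.162 in (-/-) and 0.194 in (+/+) lungs).

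Psmb8 and Psmb10 are 2 of the catalytic subunits that interferon-γ brings in. Psmb8 had 89.0, 173.7 and 127.2 in (-/-) lungs and 101.6, 157.9 and 133.6 in (+/+) lungs at term, and 79.5 to 131.7 in (-/-) lungs and 82.4 to 137.6 in (+/+) lungs at E18.5, so that all groups overlapped. Psmb10 had 121.0, 114.4 and 189.6 in (-/-) lungs and 54.7, 166.0 and 171.7 in (+/+) lungs at term, and 158.9 to 288.7 and 120.0 to 256.7 at E18.5 in the same order. Its changes over time, -0.55 in (-/-) lungs (standard error 0.24) and -0.60 in (+/+) lungs (standard error 0.33), did not pass the test (adjusted p = 0.108 and 0.211). Psmb9, the remaining catalytic subunit, was at 4.1 to 51.9 on all arrays and below the level for a test. The Psme2 probe set 100588_at, which also bears the symbol Psme2b, lay between 104.8 and 234.8 and was not called in any comparison.

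Genes of the standard proteasome changed in both directions over the same interval. Of 15 such genes, all tested, 1 was called higher and 4 lower at term in (-/-) lungs, and 1 higher and 3 lower in (+/+) lungs. Of all probe sets tested, 13.8% were called higher and 13.0% lower in (-/-) lungs, and 10.6% higher and 7.99% lower in (+/+) lungs. The catalytic-ring subunits Psmb2 and Psmb3 fell in both genotypes, Psmb2 by 1.57 in (-/-) and by 1.52 in (+/+) lungs and Psmb3 by 1.05 and by 1.07. Psma5 fell in both as well, by 0.80 and by 1.04, and Psmb6, whose place Psmb9 takes in the immunoproteasome, fell by 0.88 in (-/-) lungs. Psma6 rose by 1.07 in (-/-) lungs and Psmb4 by 0.96 in (+/+) lungs.

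**Figure D2:**
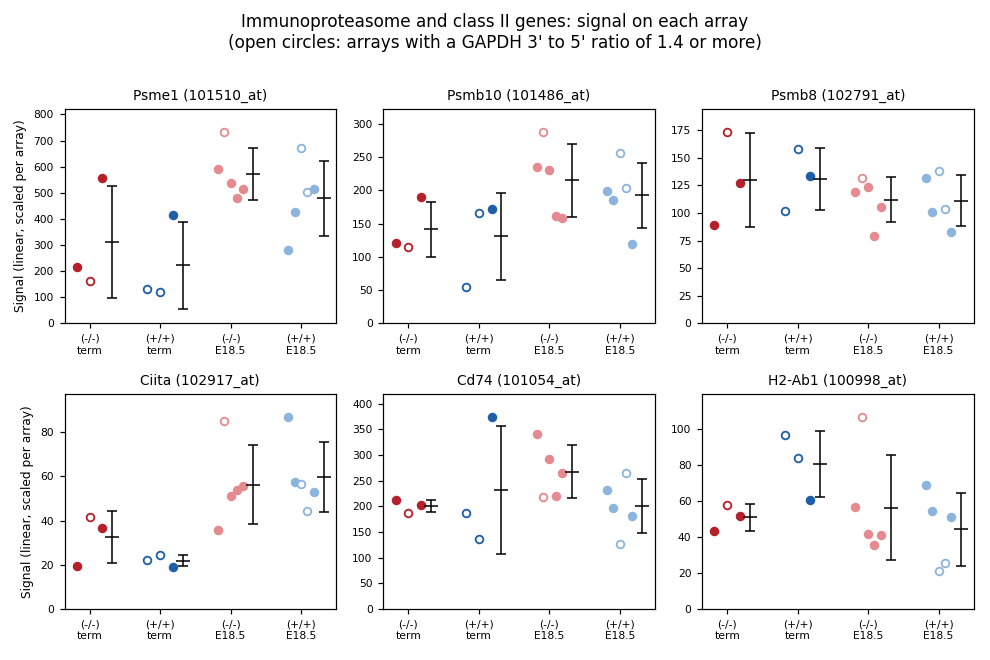
Signal (linear, scaled per array) on each array for Psme1, Psmb10, Psmb8, Ciita, Cd74 and H2-Ab1, with the mean ± SD beside each group and open circles for the 6 arrays with a GAPDH 3' to 5' ratio of 1.4 or more. For Psme1 the term arrays H (558.2) and P (415.2), both filled, lay among the E18.5 arrays, while Ciita was at 41.8 or lower on all 6 term arrays.

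Class II genes gave no direction common to both genotypes. Over time, 5 of the 6 had negative changes in (-/-) lungs (median -0.47) and 2 in (+/+) lungs (median 0.15). The medians of all probe sets were -0.12 and -0.19. Ciita, the master activator of class II transcription, had 19.5, 41.8 and 36.4 in (-/-) lungs at term and 35.7, 85.0, 51.1, 53.8 and 55.6 at E18.5, which overlapped. In (+/+) lungs it had 22, 24.4 and 19.2 at term and 86.6, 57.6, 56.6, 44.5 and 53.1 at E18.5, with no overlap. It fell by 0.98 in (+/+) lungs (log2, standard error 0.28, adjusted p = 0.0245). In (-/-) lungs the difference was -0.57 (standard error 0.26, adjusted p = 0.121), and the 2 changes differed by 0.41 (standard error 0.36), which did not pass the test. The term signals lay below the level for a test, so the size of the fall rests on low values. The (+/+) call was lost in 6 alternatives, among them covariates for Xist and for GAPDH, and without N, O or P (adjusted p up to 0.154 over all).

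Cd74, the invariant chain that guards the class II groove, had 212.5, 187.8 and 202.1 in (-/-) lungs and 187.1, 135.8 and 373.1 in (+/+) lungs at term. At E18.5 it had 341.7, 218.6, 292.0, 219.7 and 264.8 in (-/-) lungs and 231.2, 197.4, 126.9, 265.8 and 181.0 in (+/+) lungs. In (-/-) lungs every term signal was below every E18.5 signal, by as little as 212.5 against 218.6, and the change of -0.37 (standard error 0.20) did not pass the test (adjusted p = 0.19). The genotype difference at E18.5 was 0.41 (standard error 0.21, adjusted p = 0.858).

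H2-Ab1, the β chain of the A molecule, was the member with the lowest p between genotypes at term. It had 43.3, 58 and 51.8 in (-/-) lungs and 96.7, 84.1 and 60.7 in (+/+) lungs at term, without overlap, and 35.6 to 106.6 in (-/-) lungs and 21.4 to 69.1 in (+/+) lungs at E18.5. The log2 difference of -0.51 at term (standard error 0.23) had an unadjusted p of 0.048 and an adjusted p over 0.99, and the exact permutation test gave 0.1, which 3 against 3 lungs cannot go below. H2-Ab1 was the only 1 of 20 tested members whose genotypes did not overlap at term, where 3.31% of all tested probe sets did not, with 1.94% lower in (-/-) lungs. H2-Aa, the α chain of the same molecule, lay between 6.7 and 81.2 on all arrays and was not tested. At term it had 12.4, 7.6 and 10.4 in (-/-) lungs and 20.5, 7.7 and 70.8 in (+/+) lungs, which overlapped.

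H2-Eb1, the β chain of the E molecule, had 114.3, 193.9 and 121.2 in (-/-) lungs and 151.5, 209.5 and 122.0 in (+/+) lungs at term, and 64.4 to 174.9 in (-/-) lungs and 79.7 to 176.5 in (+/+) lungs at E18.5. H2-DMa, a chain of the DM molecule that exchanges class II peptides, had 63.3, 70.2 and 139.3 in (-/-) lungs and 73.1, 40.4 and 138.4 in (+/+) lungs at term, and 48.1 to 239.5 and 77.9 to 171.0 at E18.5 in the same order. Neither passed the test in any comparison, and all their groups overlapped. H2-DMa was called lower over time in (-/-) lungs when replicate D was left out and in (+/+) lungs when arrays were weighted by quality. As with Psme1, the highest H2-DMa signal of each term group was on the array with its lowest GAPDH ratio, H or P. Psmb8 went the other way, with its highest term signals, 173.7 and 157.9, on G and O, which had the highest ratios. A link of these signals to the ratio was not tested.

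The transcription factors Irf1, Irf8 and Irf9 had higher means at term than at E18.5 in both genotypes. Irf8, a factor of myeloid cells, had 117.4, 132.4 and 108.3 in (-/-) lungs at term and 65.1, 77.2, 79.9, 85.0 and 67.5 at E18.5, without overlap. Its rise of 0.58 in (-/-) lungs (log2, standard error 0.18) passed the test (adjusted p = 0.0335). In (+/+) lungs it had 118.9, 107.4 and 112.0 at term and 110.5, 63.8, 84.4, 108.0 and 64.5 at E18.5, a difference of 0.36 (standard error 0.25, adjusted p = 0.328), and the 2 changes differed by 0.21 (standard error 0.29), which did not pass the test. The (-/-) call was lost without A, C, E, F, G or H (adjusted p up to 0.117), and with no filter, with a filter at a higher signal and on arrays with a GAPDH ratio under 1.4.

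Irf9, the DNA-binding part of the type I interferon complex, had 140.9, 113.8 and 164.9 in (-/-) lungs at term and 67.3, 120.2, 95.0, 51.4 and 85.2 at E18.5. Its change of 0.67 (standard error 0.24, adjusted p = 0.0543) did not pass the test, but it did in 5 alternatives and without B. In (+/+) lungs Irf9 had 131.6, 92.8 and 162.3 at term and 164.8, 106.9, 75.8, 150.4 and 84.6 at E18.5, a difference of 0.15. Irf1, which interferon-γ induces, had 131.7, 161.9 and 198.0 in (-/-) lungs at term and 73.8, 89.6, 135.2, 118.5 and 113.3 at E18.5, a difference of 0.57 (standard error 0.22, adjusted p = 0.0725). In (+/+) lungs Irf1 had 150.1, 178.3 and 186.7 at term and 97.8 to 179.6 at E18.5, a difference of 0.33. Irf7, which amplifies type I interferon, had 42.3 to 53.1 in (-/-) lungs and 46.9 to 62.6 in (+/+) lungs at term, and 60.6 to 87.7 in (-/-) lungs and 34.0 to 96.0 in (+/+) lungs at E18.5. These (-/-) signals did not overlap between the times, and the change of -0.41 (standard error 0.20) did not pass the test (adjusted p = 0.138). The other Irf7 probe set, 104669_at, had 14.9 to 69.0 at term and 29.9 to 67.8 at E18.5 in (-/-) lungs, which overlapped.

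Most interferon-induced members were near the bottom of the signal range. Of the 13 measured, 4 passed the level for a test at term and over time and 3 at E18.5, and none was called in any comparison. Ifitm3, a membrane protein that blocks virus entry, was well above the level, with 894.2, 614.5 and 963.7 in (-/-) lungs and 852.8, 469.8 and 1293.3 in (+/+) lungs at term. At E18.5 it had 769.0, 478.0, 1685.2, 1199.5 and 1374.8 in (-/-) lungs and 1202.5, 1225.1, 663.4, 1763.5 and 1113.4 in (+/+) lungs. The groups overlapped fully, and the genotype differences were 0.01 at term (standard error 0.37) and -0.18 at E18.5 (standard error 0.33).

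Isg15 had 95.7, 11.9 and 63.6 in (-/-) lungs and 95.5, 80.2 and 117.3 in (+/+) lungs at term, and 16.2, 50.3, 83.3, 37.2 and 56.6 in (-/-) lungs and 42.0, 57.0, 13.2, 80.1 and 57.1 in (+/+) lungs at E18.5. In (+/+) lungs the lowest term signal, 80.2, was just above the highest E18.5 signal, 80.1, and the change of 0.88 (standard error 0.34) did not pass the test (adjusted p = 0.0827). The genotype difference at term, -0.84 (standard error 0.44), did not pass the test either, and replicate G, at 11.9, was far below the other (-/-) lungs. Gbp3, a guanylate-binding GTPase, had 62.7, 44.1 and 62.6 in (-/-) lungs and 70.5, 35.9 and 92.6 in (+/+) lungs at term, and 16.8 to 58.9 in (-/-) lungs and 14.0 to 65.5 in (+/+) lungs at E18.5. Ifi35 had 50.2 to 134.2 in (-/-) lungs and 40.9 to 135.6 in (+/+) lungs at term, and 80.4 to 121.6 and 32.8 to 124.0 at E18.5 in the same order, with all groups overlapping.

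The other 9 were below the level for a test in every comparison. Ifit1, Ifit2 and Ifit3, which bind viral RNA, lay between 1.7 and 46.3 on all arrays, and the GTPases Ifi47, Gbp2, Igtp and Irgm1 between 1.3 and 51.7. Mx1, a GTPase against influenza virus, had 1.0, 11.4 and 0.7 in (-/-) lungs and 4.8, 1.2 and 6.3 in (+/+) lungs at term, and 1.8 to 9.5 in (-/-) lungs at E18.5. In (+/+) lungs at E18.5 it had 12.2, 4.7, 8.2 and 13.5 on 4 arrays and 75.8 on replicate I, the array with raised bacterial controls. On replicate I, Ifit1, Ifit2, Ifit3, Ifi47, Gbp2, Gbp3, Mx1 and Usp18, the protease that removes Isg15, had the highest signals of their group. Ifi47 had 15.8, 6.9 and 11.7 in (-/-) lungs at term and 1.7 to 3.9 in (-/-) lungs at E18.5, without overlap, while bacterial controls averaged 3.58 to 11.05 on those arrays and the others but I.

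**Figure D3:**
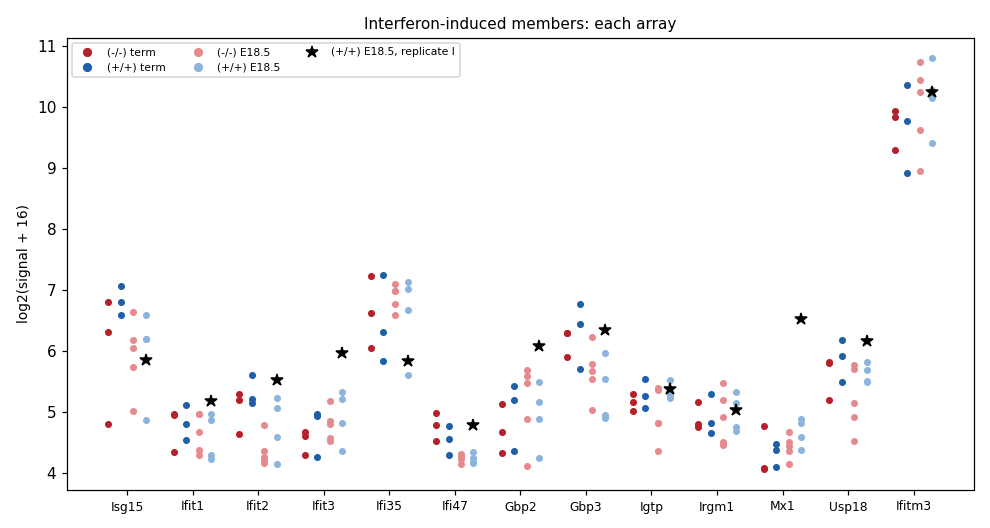
log2(signal + 16) of the 13 interferon-induced members on each array, by genotype and time, with a star for replicate I. Replicate I lies far above its group for Mx1 (75.8 on the linear scale).

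Several receptors and feedback regulators of interferon signaling rose over time. Of 13 genes on this list 12 were measured and 11 tested over time, of which 4 were called higher and none lower in (-/-) lungs and 5 higher and none lower in (+/+) lungs. Of all probe sets tested, 13.8% and 10.6% were called higher in these genotypes. Ifnar2, a chain of the type I interferon receptor, averaged 145 ± 33.2 in (-/-) lungs and 141 ± 46.8 in (+/+) lungs at term (SD, n = 3 each), and 39.8 ± 21.9 and 44.5 ± 17.0 at E18.5 in the same order (SD, n = 5 each). It rose by 1.63 in (-/-) lungs (adjusted p = 0.00586) and by 1.39 in (+/+) lungs (adjusted p = 0.00643). Its other probe set averaged 58.5 in (-/-) and 48.9 in (+/+) lungs at term, and 45.0 and 32.4 at E18.5, a change of 0.26 in (-/-) lungs that did not pass the test (adjusted p = 0.432), and was below the level for a test in (+/+) lungs. Ifngr2, a chain of the interferon-γ receptor, averaged 116 ± 26.3 in (-/-) lungs and 168 ± 30.6 in (+/+) lungs at term, and 57.8 ± 15.3 and 49.6 ± 18.7 at E18.5. It rose in both genotypes, and Ifngr1, the other chain, rose in (+/+) lungs by 1.32. Socs3, an inhibitor of JAK signaling, rose by 1.05 in (-/-) and by 1.81 in (+/+) lungs, and the phosphatase Ptpn1 by 0.86 and by 1.05. Tbk1, the kinase that activates Irf3, rose by 0.62 and by 0.78, as 1 of 4 tested genes of the sensor list.

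Of 43 further interferon-induced genes, 29 were measured and 16 tested over time. Trim25, a ubiquitin ligase of RNA sensing, rose in both genotypes, by 1.31 in (-/-) and by 1.58 in (+/+) lungs. In (-/-) lungs Gbp7 also rose, by 0.65, and Adar and Ifitm1 fell, by 0.75 and by 1.0. Among class I helpers outside the set, the disulfide isomerase Pdia3 rose by 1.04 in (+/+) lungs. Among class II helpers, the endosomal protease Lgmn rose in both, by 1.42 in (-/-) and by 1.58 in (+/+) lungs, and Rfxank, a subunit of the factor that recruits Ciita, fell by 1.02 in (+/+) lungs. Over all 6 of these lists, 10 genes were called higher and 6 lower of 57 tested in (-/-) lungs, and 11 higher and 4 lower of 58 in (+/+) lungs, beside 26.7% of all probe sets called in either direction in (-/-) and 18.6% in (+/+) lungs.

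Over time, few members were called in either genotype, and their share was not tested against that of all probe sets. In (-/-) lungs 4 of 21 tested members were called (19.0%), 3 higher and 1 lower, where 26.7% of 6193 tested probe sets were called, 13.8% higher and 13.0% lower. In (+/+) lungs 5 of 21 were called (23.8%), 3 higher and 2 lower, where 18.6% of 6145 were and 7.99% were lower. An unadjusted p under 0.05 was found for 9 members in (-/-) and 8 in (+/+) lungs, and for 40.4% and 34.4% of all probe sets. The times did not overlap for 5 members in each genotype, 3 higher and 2 lower in (-/-) lungs and 4 higher and 1 lower in (+/+) lungs, against 30.6% (15.9% higher, 14.7% lower) and 24.4% (12.8% higher, 11.6% lower) of all probe sets. The median change of the 33 measured members was 0.08 in (-/-) and 0.12 in (+/+) lungs, and that of all probe sets -0.12 and -0.19. Among members and probe sets tested, the medians were 0.05 against -0.06 in (-/-) lungs and 0.21 against -0.04 in (+/+) lungs. Of the 21 members tested in both genotypes 17 changed in the same direction in both (81.0%), as did 85.4% of all probe sets tested in both.

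**Figure D4:**
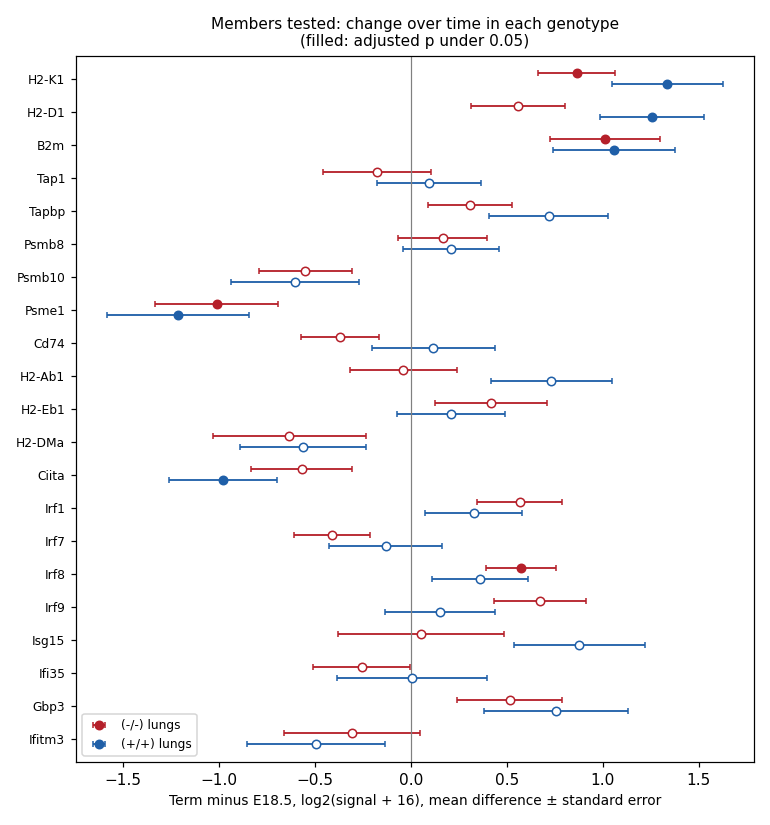
Difference of mean log2(signal + 16), term minus E18.5, with its standard error for each tested member in (-/-) lungs (red, above) and (+/+) lungs (blue, below), with filled circles for an adjusted p under 0.05. H2-K1 and B2m were called higher and Psme1 lower in both genotypes, H2-D1 and Ciita were called in (+/+) lungs and Irf8 in (-/-) lungs.

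Between genotypes no member was called at either time. The counts below use the probe set that stood for each gene. At E18.5, 0 of 19 tested members were called (limma, adjusted p), as were 0.0340% of 5879 probe sets, and 1 member, Tapbp, had an unadjusted p under 0.05, which 5.31% of all tested probe sets had. On these probe sets, no tested member had genotypes without overlap at E18.5, as 1.14% of all probe sets did (0.663% higher, 0.476% lower). At term 0 of 20 were called, as were 0% of 5885 probe sets, and 1 member, H2-Ab1, had an unadjusted p under 0.05, which 0.680% of all had. The methods' t-test called 0 members at either time after adjustment as well. The 33 measured members had a median difference of -0.07 at term, against 0.00 for all probe sets, and of -0.05 at E18.5, against -0.05 for all probe sets.

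Standard errors set what these comparisons could resolve. The difference of H2-K1 was -0.24 (standard error 0.27) in term lungs and 0.23 (standard error 0.20) in E18.5 lungs. That of H2-D1 was -0.34 (standard error 0.26) in term lungs and 0.36 (standard error 0.22) in E18.5 lungs. The H2-D1 probe set 97540_f_at was higher in (-/-) lungs at E18.5 without overlap, at 305.7 to 438.0 against 197.5 to 274.4 in (+/+) lungs, a difference of 0.59 (standard error 0.18, unadjusted p = 0.00482, adjusted p = 0.792, and 0.00794 by the exact permutation test, which 5 against 5 lungs cannot go below). It was not the probe set that stood for the gene, and at term its difference was -0.25 (standard error 0.28). The change of the genotype difference between the times was called for 0 of 22 tested members, as for 0% of 6458 probe sets. On the probe sets that stood for them, 0 members had an unadjusted p under 0.05, which 1.47% of all probe sets had.

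**Figure D5:**
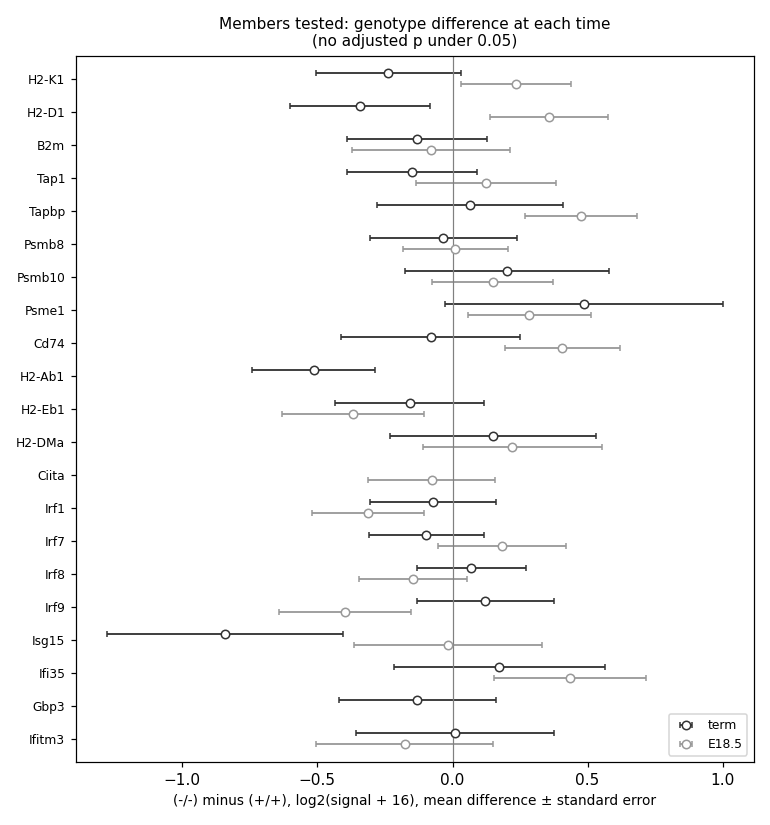
Difference of mean log2(signal + 16), (-/-) minus (+/+), with its standard error for each tested member at term (dark, above) and at E18.5 (light, below). No circle is filled, since no adjusted p was under 0.05, and the largest differences were -0.84 (Isg15) and -0.51 (H2-Ab1) at term and 0.47 (Tapbp) at E18.5.

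Of 113 further pathway genes, 86 were measured. At E18.5, 5 of 52 tested had an unadjusted p under 0.05, all of them lower in (-/-) lungs: Iigp1 at -0.80, Vcam1 at -0.53 and the proteasome subunits Psma2, Psma4 and Psma6 at -1.06, -0.76 and -0.77. At term 1 of 57 did, Rfxank at 0.47. Of all probe sets tested, 5.31% had such a p at E18.5 (158 higher and 154 lower in (-/-) lungs) and 0.680% at term. These 6 genes were named after their values were seen, and none passed the test (adjusted p of 0.792 or more).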

How the data were processed

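The authors labeled total RNA of 16 lungs and hybridized it to Affymetrix U74Av2 arrays. The deposited values are linear signal intensities, 1 per probe set, which the authors derived with Microarray Suite and scaled per array, with a median of 35.8 to 61.0 per array. Detection calls, which the methods filtered on, were not analysed here. Probe sets were named through the platform annotation: 10833 had 1 symbol, 396 several and 1193 none, and 66 controls were left out. Groups came from the sample labels.

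Signals were compared as log2(signal + 16). A probe set was tested where the median of at least 1 group exceeded the signal that the methods' mean share of present calls corresponds to (53.4 at E18.5, 47.7 at term, 50.1 over time in (-/-), 52.5 over time in (+/+), 51.3 for all arrays). Linear models were fitted with limma 3.58.1 (R 4.3.3), its variances moderated along a trend with mean signal, and 2-sided p-values had Benjamini-Hochberg adjustment over all probe sets tested and a threshold of 0.05. Single probe sets were also compared by an exact permutation test of mean log2(signal + 16). The fits were also run on simulated signals with independent noise and without differences between arrays. That run cannot show how such differences act in these data. Python 3.11.15 with pandas 2.3.3, numpy 2.4.6 and matplotlib 3.10.9 made summaries and plots.

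Members and gene lists were chosen with earlier results of these data known. Members above the filter, or with a p under 0.05 or non-overlapping genotypes, are given with their values, and other pathway genes where an adjusted p was under 0.05. Alternatives were other scalings, pseudocounts, filters, variance models, covariates, the methods' t-test and leaving out each array. The GAPDH ratio as a covariate and the fit of arrays with a ratio under 1.4 were added after seeing the data. Symbols and promoters came from RefSeq tables of GRCm38.p6. The number of arrays limits the precision.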

Additional observations from a re-analysis of the deposited data

Results flagged for a closer look

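In 66 groups of 5 lungs, 1 signal stood far from the rest in 3, where chance alone marks about 1 group in 20. The number flagged is thus about what chance gives. Mx1 was at 75.8 on replicate I, a (+/+) lung at E18.5, and the nearest lung of that group had 13.5. Ifi47 was at 11.5 on the same array, and the nearest had 4.3. Ifit2 was at 11.7 on replicate E, a (-/-) lung at E18.5, and the nearest had 4.5. All of them were below the level for a test by group median, and replicate I had the highest mean of unspiked bacterial controls, 35.3.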

How the results depend on the processing

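Between genotypes no member was called under any alternative run. In (-/-) lungs, members called over time numbered 7 when all their probe sets were counted, 2 by the methods' t-test and 1 on arrays with a GAPDH ratio under 1.4, against 4, and 1 (without F) to 5 (without D) when a lung was left out. In (+/+) lungs they numbered 8 with all probe sets, 3 without a filter, 0 with Xist as a covariate, 2 by the methods' t-test, 3 with the GAPDH ratio as a covariate and 0 on arrays with a ratio under 1.4, against 5, and 2 (without N or O) to 4 when a lung was left out. Psme1 in (+/+) lungs turned to 0.0706 on arrays with a ratio under 1.4. The cause was not tested. Calls over all probe sets in (-/-) lungs numbered 1034 by the t-test and 920 at the lower ratio, against 1655, and 897 without F and 1102 without G. In (+/+) lungs they numbered 183 with Xist, 350 by the t-test, 116 at the lower ratio and 1939 with array weights, against 1140, and 333 without N and 583 without O. Centring arrays on their medians moved all probe sets by 0.11 in (-/-) and 0.14 in (+/+) lungs, and 66.6% and 74.9% of calls were then higher, against 51.5% and 56.9%. No paired analysis was possible because the labels give each lung its own letter and the groups share no replicate number.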
